A study of Mus musculus with 6 samples.

Results

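The genes of the constitutive proteasome were examined in whole lungs of TNF+ and TNF- mice by bulk RNA-sequencing. They were taken as every gene symbol made of Psma, Psmb, Psmc, Psmd, Psme or Psmf and a number, with the inducible catalytic subunits Psmb8, Psmb9 and Psmb10 left out. The rule found 41 of 49568 gene symbols, on 16 chromosomes, and used no expression value. The TNF+ lungs came from 3 TNF-Tg mice, which carry a single copy of the human TNF gene, and the TNF- lungs from 3 wildtype littermates. All mice were females on the C57BL/6 background, and lungs were taken at 4 months of age. The model develops erosive arthritis and lung vascular disease, and the lungs were sequenced whole, so every value below is an average over all cell types of the organ.

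The proteasome is the barrel-shaped protease that degrades proteins tagged with ubiquitin. Its 20S core is a stack of outer alpha rings, which gate the barrel, and inner beta rings, which hold the cutting sites. The 19S regulatory particle caps the core: its base contains a ring of ATPases that unfold the substrate, and its lid contains the enzyme that removes the ubiquitin chain. Other caps, the PA28 and PA200 activators, open the core without using ubiquitin. Constitutive proteasomes are found in every nucleated cell. In leukocytes, and in other cells exposed to interferon, newly made cores take up Psmb8, Psmb9 and Psmb10 in place of the constitutive catalytic subunits, and PA28 is raised alongside them.

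Total counts ranged from 25396923 to 32529408 per lung, so that 3 counts, the limit allowed by a count of 0, corresponded to between 0.0922 and 0.118 CPM (counts relative to the library total). Mouse Tnf had 106, 213 and 405 counts in the TNF+ group against 16, 14 and 35 in the TNF- group. The human transgene was not analysed here. Markers of lung epithelium and endothelium were present in every lung. Some lungs stood apart from their group. TNF- replicate 1 held 3350 CPM of 5 squamous epithelium genes and 1470 CPM of 5 skeletal muscle genes, against at most 2.9 and 35.4 CPM in the other lungs. In TNF+ replicate 1, the single gene Gm42418 took 5.22% of all counts, against 0.0774% to 0.274% elsewhere.

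Of the 41 genes, 40 passed the filter on low counts and were tested. In TNF+ lungs 21 of them (52.5%) were differentially expressed at an edgeR adjusted p under 0.05, and all 21 were higher. Differential expression was widespread in these lungs: 9096 of 19199 genes tested (47.4%) passed the same cutoff, and 24.0% of all genes tested were higher and 23.4% lower. The share of subunit genes called in either direction was therefore near the background, whereas the direction was uneven. None was called lower by edgeR, although at an unadjusted p under 0.05 there were 2 lower genes, Psmc5 and Psmd7, beside 23 higher ones. With DESeq2 the count of lower genes was 1. The 3 TNF+ lungs lay above all 3 TNF- lungs for 25 subunit genes and below them for 2, against 30.5% and 28.2% of all genes tested (58.7% in either direction). The median log2 fold change of the 40 genes was 0.34, and that of all genes tested was 0.03.

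The calls were divided by position in the particle. All 14 genes of the 20S core were called higher, with log2 fold changes from 0.35 to 0.77 and a median of 0.48. Of the 17 genes of the 19S particle, 4 were called higher (23.5%), near the 24.0% of all genes tested, and the median was 0.16. That median was 0.07 without TNF+ replicate 2, 0.10 without TNF+ replicate 1 and 0.10 without TNF- replicate 1, and at most 0.20 without any other lung. Log2 fold changes of the 19S genes ran from -0.25 to 0.92, so that 7 of 17 were at or below 0. Among the other 9 tested genes, the chaperone Psmd10, the PA28 subunit Psme2 and the PA200 gene Psme4 were called higher. The 14 core genes were positive under every alternative that was run, but 11 to 14 of them were called in the analyses without 1 lung, and 11 were called when libraries were scaled by total counts only. The count of called 19S genes was 3 or 4 in every setting where 1 lung was left out.

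**Figure D1:**
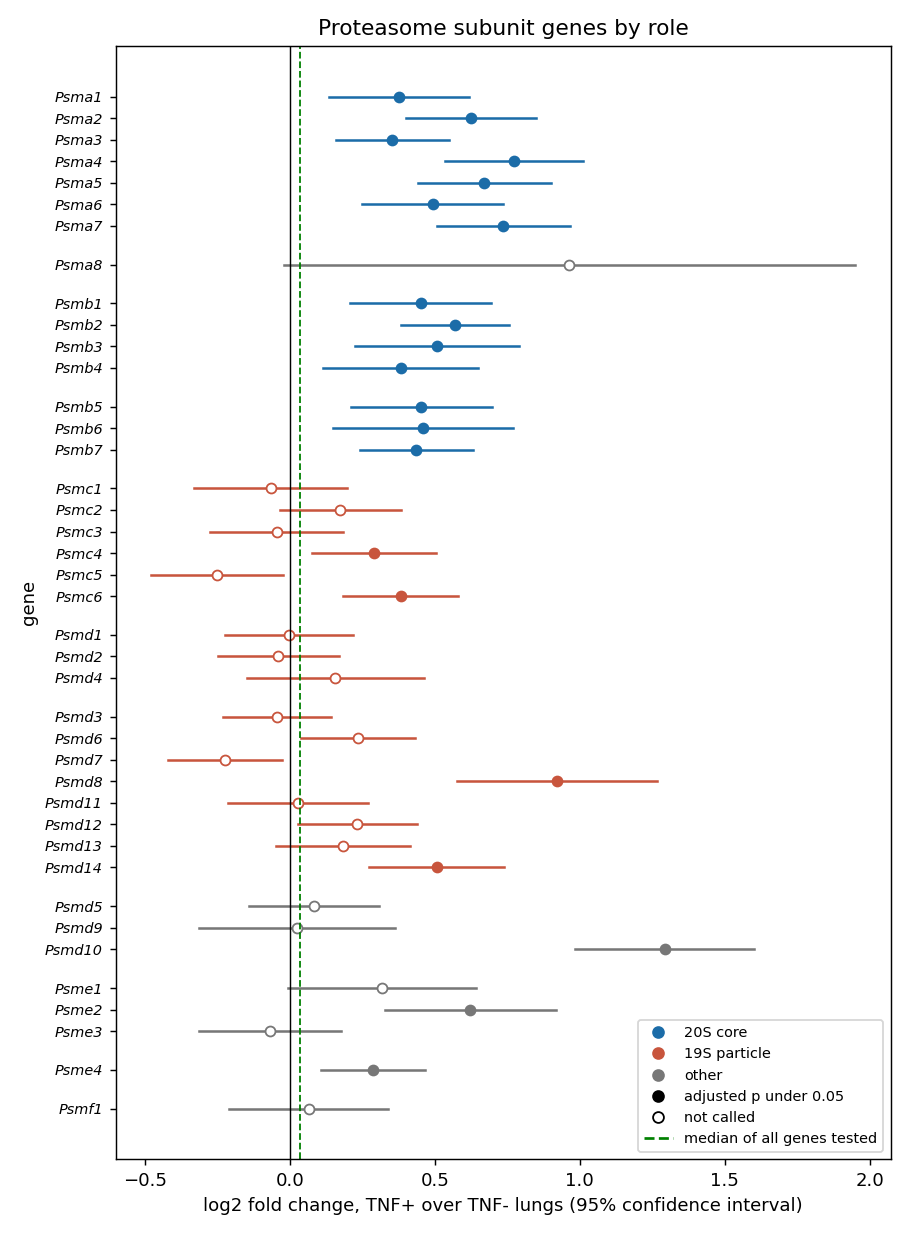
Log2 fold change of each tested proteasome subunit gene in TNF+ over TNF- lungs, with 95% confidence intervals, grouped by role; filled points passed an adjusted p of 0.05 and the dashed line marks the median of all genes tested, 0.03. All 14 genes of the 20S core (blue) lie to the right of 0, whereas the 17 genes of the 19S particle (red) lie on either side of it.

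Levels of cell type markers moved with these results. Of 10 leukocyte markers, 9 were higher in TNF+ lungs, and their summed level was 3820 to 4160 CPM against 1040 to 1340 CPM in TNF- lungs. All 5 proliferation markers were higher (101 to 153 CPM against 39.6 to 58.5 CPM). Of 8 epithelial markers 6 were lower (20300 to 22600 CPM against 36100 to 45800 CPM), as were all 5 endothelial markers (1230 to 1660 CPM against 2580 to 2990 CPM) and 4 of 5 mesenchymal markers (925 to 1090 CPM against 1560 to 2000 CPM). None of these marker genes except Krt13 of the squamous list was at 0 in any lung. In whole lungs a change in the number of cells of a type and a change in RNA per cell cannot be told apart, and the part of cell types in the rise of the core genes was not tested. Without TNF- replicate 1, or without TNF+ replicate 1, 16 subunit genes were called higher in place of 21, and none lower.

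The 7 alpha subunits had log2 fold changes from 0.35 to 0.77, with a median of 0.63. Psma4 (chr9:54950790-54958030, plus strand, GRCm38) had 1845, 1676 and 1939 normalized counts in TNF+ lungs and 1089, 959.4 and 1144 in TNF- lungs. The lowest TNF+ lung was well above the highest TNF- lung, and the log2 fold change was 0.77 ± 0.10 (SE, edgeR adjusted p = 0.000597). Psma7 had 2690, 2752 and 2387 normalized counts against 1498, 1497 and 1701, again without overlap, for a log2 fold change of 0.74 ± 0.10 (SE, edgeR adjusted p = 0.000613). Psma5 (0.67), Psma2 (0.63), Psma6 (0.49), Psma1 (0.38) and Psma3 (0.35) followed as log2 fold changes, each with 3 of 3 TNF+ lungs above the TNF- lungs. Psma1 was the least stable of them. Its edgeR adjusted p of 0.0190 rose to 0.0869 without TNF+ replicate 1, 0.0747 without TNF+ replicate 3, 0.0804 without TNF- replicate 1 and 0.0697 without TNF- replicate 2.

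Psma8, the alpha subunit that replaces Psma7 in testis proteasomes, was close to the detection limit, with 10, 16 and 15 counts in TNF+ lungs and 4, 11 and 9 in TNF- lungs. The difference of 0.96 ± 0.43 (log2 fold change, SE) did not pass the cutoff (edgeR adjusted p = 0.0974), and it was 0.64 without TNF- replicate 1. Psmb11, the beta subunit of thymus epithelium, was the gene left untested, with 0, 1 and 0 counts in TNF+ lungs and 0, 2 and 0 in TNF- lungs. Neither tissue-restricted subunit had more than 16 counts in any lung.

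The structural genes of the beta ring had log2 fold changes from 0.38 to 0.57, within the range of the alpha ring genes. Among them, Psmb2 had 2029, 1947 and 1978 normalized counts in TNF+ lungs and 1281, 1340 and 1390 in TNF- lungs, a log2 fold change of 0.57 ± 0.08 (SE, edgeR adjusted p = 0.000778) with little spread in either group. Psmb3 had 2660, 2781 and 2341 against 1544, 1946 and 1976, and its log2 fold change was 0.51 ± 0.12 (SE, edgeR adjusted p = 0.0102). Psmb1 and Psmb4 had log2 fold changes of 0.45 and 0.38. The call of Psmb4 was weak: its edgeR adjusted p of 0.0265 became 0.0841 without TNF+ replicate 1, 0.0867 without TNF+ replicate 2, 0.108 without TNF- replicate 1 and 0.0880 without TNF- replicate 2.

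The catalytic subunits, all in the beta ring, changed by nearly the same factor. Psmb5, which cuts after hydrophobic residues, had 1395, 1491 and 1364 normalized counts in TNF+ lungs and 1005, 936.4 and 1161 in TNF- lungs, and the log2 fold change was 0.45 ± 0.11 (SE, edgeR adjusted p = 0.00865). Psmb7, which cuts after basic residues, had 1520, 1652 and 1584 against 1175, 1126 and 1213, with a log2 fold change of 0.44 ± 0.08 (SE, edgeR adjusted p = 0.00365). For both genes each TNF+ lung exceeded each TNF- lung. Psmb6, which cuts after acidic residues, varied more, with 3242, 3709 and 2784 against 2048, 2499 and 2540. Its log2 fold change was 0.46 ± 0.14 (SE, edgeR adjusted p = 0.0237), and the adjusted p rose to 0.0746, 0.0800 and 0.0844 without TNF+ replicate 1, TNF+ replicate 2 and TNF- replicate 1.

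**Figure D2:**
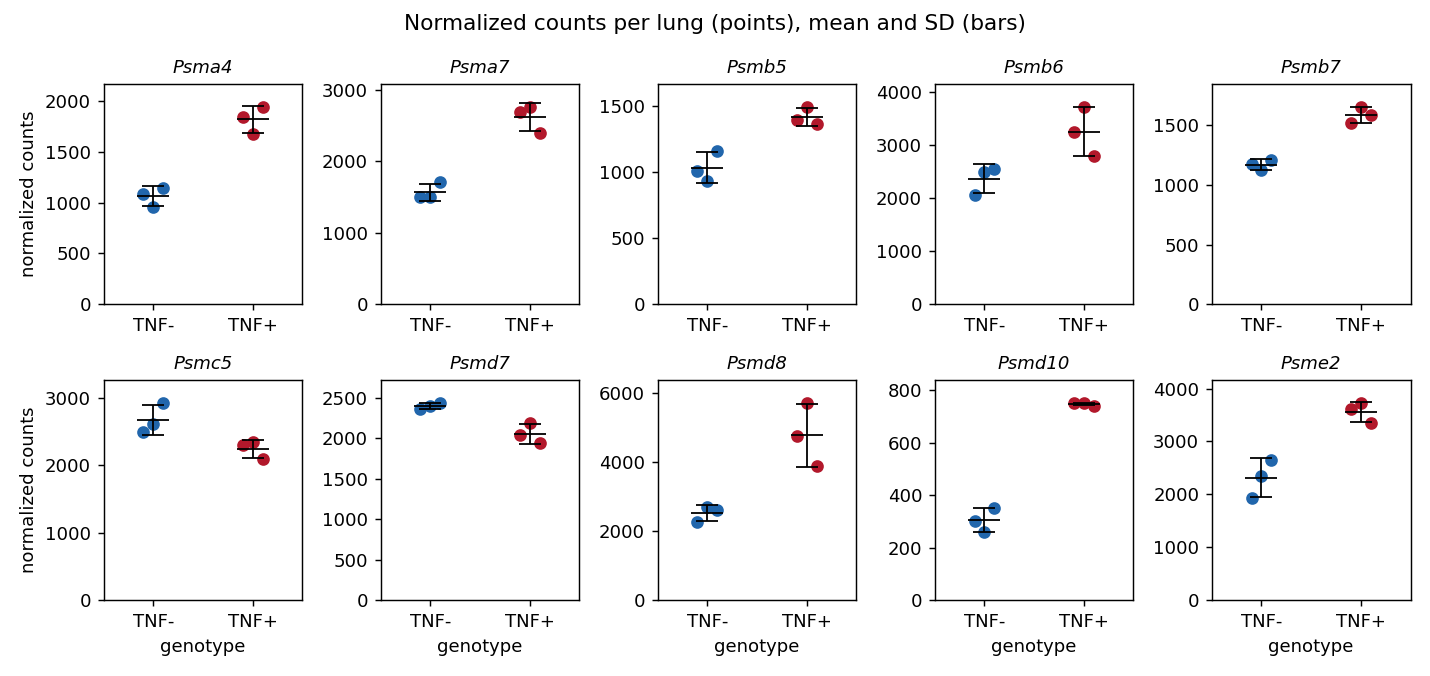
Normalized counts of 10 proteasome genes in each lung (points) with the group mean and SD (bars), each vertical axis starting at 0. TNF+ points lie above all TNF- points for every gene shown except Psmc5 and Psmd7, where they lie below; the values of Psmd10 in TNF+ lungs are nearly identical, from 742.0 to 750.8.

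Some of these genes have near-identical copies elsewhere in the genome, and although the study speaks of uniquely mapped transcripts, the setting of the counting program for reads that fit several places is not given in the sources used here. By GENCODE annotation, 22.2% of the 100-base windows of the Psmb5 transcript also occur in another gene, as do 23.7% for Psma5, 18.4% for Psme2 and 13.4% for Psma3. The copy Gm3375 of Psmb5 had 516, 684 and 683 counts in TNF+ lungs and 516, 517 and 661 in TNF- lungs. In an alternative chosen after seeing the data, the counts of each copy were added to its parent. The log2 fold changes were then 0.43 for Psmb5, 0.69 for Psma5, 0.61 for Psme2 and 0.36 for Psma3, and all 4 calls were kept.

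The ATPases of the 19S base did not move together. Psmc6 had 1258, 1184 and 1239 normalized counts in TNF+ lungs and 937.4, 976.6 and 909.9 in TNF- lungs, and rose by a log2 fold change of 0.38 ± 0.09 (SE, edgeR adjusted p = 0.00747). Psmc4 had 2838, 2764 and 2469 against 2156, 2141 and 2307, a log2 fold change of 0.29 ± 0.09 (SE, edgeR adjusted p = 0.0330). This call was lost with DESeq2 (adjusted p = 0.0592), with upper-quartile factors (0.0571), with no filter on low counts (0.0721) and when any of 4 lungs was left out, with adjusted p values of 0.152 without TNF+ replicate 1, 0.0868 without TNF+ replicate 2, 0.115 without TNF- replicate 1 and 0.106 without TNF- replicate 2. Psmc2, Psmc3 and Psmc1 had log2 fold changes of 0.17, -0.05 and -0.07 and were not called, and that of Psmc3 ran from -0.14 to -0.0061 when lungs were left out. For Psmc2 the 3 TNF+ lungs were above the TNF- lungs (edgeR adjusted p = 0.146). Psmc5, named here after its values were seen, went the other way, with 2297, 2340 and 2087 normalized counts in TNF+ lungs and 2483, 2606 and 2915 in TNF- lungs. The groups did not overlap, but the log2 fold change of -0.25 (95% confidence interval -0.48 to -0.02) missed the cutoff, with an edgeR adjusted p of 0.0676. It passed with DESeq2 (adjusted p = 0.0490) and with upper-quartile scaling in edgeR (adjusted p = 0.0410).

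Beside the ATPases, the base contains Psmd1 and Psmd2, its large scaffolds, and the ubiquitin receptor Psmd4. None of the 3 was called, with log2 fold changes of 0.00, -0.04 and 0.16 and overlapping groups. The 95% confidence intervals were -0.22 to 0.22 for Psmd1, -0.25 to 0.17 for Psmd2 and -0.15 to 0.46 for Psmd4, and that of Psmd4 takes in the log2 fold changes of several core genes. Psmd4 ranged from 0.04 without TNF- replicate 1 to 0.25 without TNF- replicate 3.

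Among the 19S roles, the lid spanned the widest range, from -0.22 to 0.92. Psmd8 (chr7:29174188-29180701, minus strand, GRCm38), a lid subunit, had 4743, 5694 and 3881 normalized counts in TNF+ lungs and 2257, 2705 and 2596 in TNF- lungs, a log2 fold change of 0.92 ± 0.15 (SE, edgeR adjusted p = 0.00156). It was the largest rise among the 19S genes, in spite of the spread between TNF+ lungs. Psmd14, the deubiquitinating enzyme of the lid, had 991.5, 1029 and 953.4 against 697.6, 755.2 and 640.7, and the log2 fold change was 0.51 ± 0.10 (SE, edgeR adjusted p = 0.00438). Psmd7, the structural partner of Psmd14, had 2044, 2186 and 1938 normalized counts in TNF+ lungs and 2365, 2403 and 2431 in TNF- lungs. It is named here because of these values, which did not overlap and lay lower in TNF+ lungs. Its log2 fold change of -0.22 ± 0.09 (SE) missed the cutoff (edgeR adjusted p = 0.0621), which it passed with DESeq2 size factors (adjusted p = 0.0431) and with upper-quartile factors (adjusted p = 0.0338). The other lid genes were not called. Psmd6 and Psmd12 both had a log2 fold change of 0.23 with all 3 TNF+ lungs above the TNF- lungs, and they missed the cutoff as narrowly as Psmd7 did (edgeR adjusted p = 0.0511 and 0.0626). The log2 fold changes of Psmd13, Psmd11 and Psmd3 were 0.18, 0.03 and -0.04 with overlapping groups. That of Psmd13 was 0.11 without TNF- replicate 1, and the sign of Psmd11 turned negative with DESeq2 and with upper-quartile factors.

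The difference between core and cap was visible in every lung. The mean log2 level of the 14 core genes minus that of the 17 19S genes, which does not depend on library scaling, was -0.09, -0.12 and -0.07 in TNF+ lungs. In TNF- lungs it was -0.51, -0.50 and -0.40, so that the groups were separate. Relative to the mean of the TNF- lungs, the alpha ring genes averaged 0.58, 0.59 and 0.54 log2 units higher in the 3 TNF+ lungs, and the beta ring genes 0.47, 0.56 and 0.38. The ATPases averaged 0.09, 0.15 and -0.01 and overlapped with the TNF- lungs, where the same mean was -0.07, 0.02 and 0.04. The lid genes averaged 0.23, 0.30 and 0.15 against -0.01, 0.02 and -0.01. Averaged over all 17 19S genes, the level was 0.15, 0.22 and 0.06 in the TNF+ lungs. The TNF- lungs had -0.04, 0.02 and 0.02 for the same genes, without overlap. Summed over all 41 genes, proteasome subunits took 0.272% to 0.310% of counts in TNF+ lungs and 0.237% to 0.271% in TNF- lungs.

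**Figure D3:**
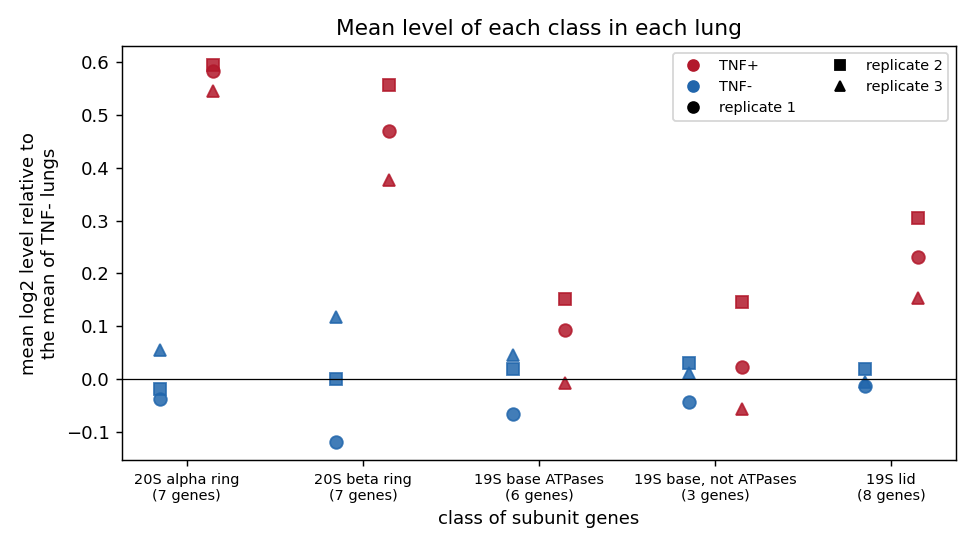
Mean log2 level of each class of subunit genes in each lung, relative to the mean of the TNF- lungs (horizontal line at 0); color marks genotype and shape marks replicate number. The alpha and beta ring means of the TNF+ lungs, from 0.38 to 0.59, lie above those of every TNF- lung. The lid means of the TNF+ lungs, from 0.15 to 0.30, do so as well. The means of the ATPases and of the other base genes overlap between TNF+ and TNF- lungs.

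Core and cap genes also differed in size. The coding length of the 14 core genes ran from 603 to 831 bases and that of the 17 19S genes from 930 to 2859 bases, with no overlap. Across 15131 tested genes with a coding length, the log2 fold change was related to that length with a Pearson r of -0.14 and a Spearman rho of -0.19. This is a correlation across genes measured in the same 6 lungs, and genes are not independent replicates. Among the 39 members other than Psma8 the values were -0.29 and -0.63. Within the core rho was -0.45 (n = 14 genes) and within the 19S particle -0.38 (n = 17 genes). The 1604 other genes in the coding length range of the core had a median log2 fold change of 0.08, with 27.4% called higher, and the 8412 others in the range of the 19S genes had -0.04, with 20.9% called higher. When the other genes were also held to the CPM range of each class, the medians were 0.12 (n = 270 genes) and -0.03 (n = 2983 genes). The medians of 0.48 and 0.16 of core and cap were thus above those of other genes of their length, and the part of length in the difference between the classes was not tested.

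**Figure D4:**
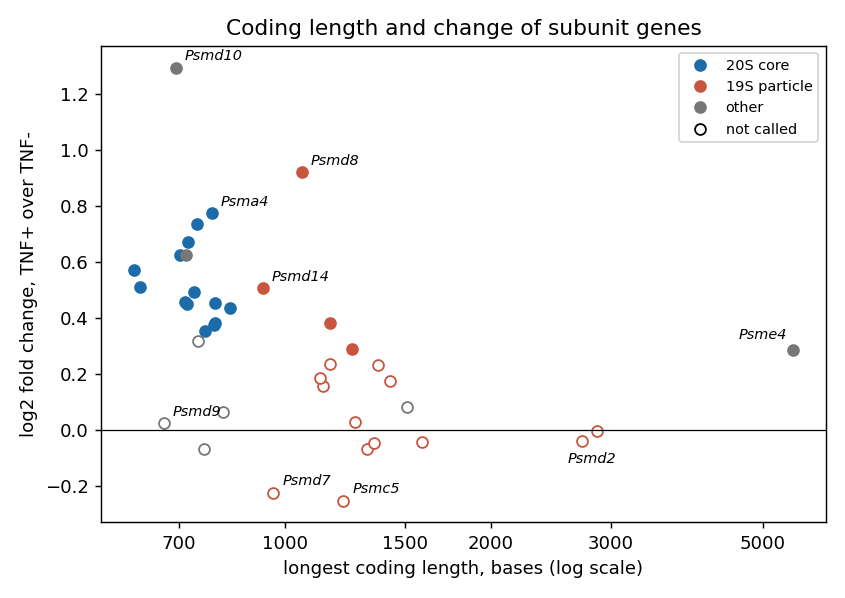
Log2 fold change of 39 proteasome genes in TNF+ over TNF- lungs against their longest coding length in bases on a log scale; filled points passed an adjusted p of 0.05. The core genes (blue) all lie between 603 and 831 bases and at 0.35 or more, and the 19S genes (red) begin at 930 bases and spread around 0.16.

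Chaperones encoded by 3 of the genes help to assemble the 19S base, and their genes differed widely. Psmd10 (chrX:140948429-140956728, minus strand, GRCm38), also known as gankyrin and as a partner of the retinoblastoma protein, had 750.3, 750.8 and 742.0 normalized counts in TNF+ lungs and 303.9, 259.7 and 351.0 in TNF- lungs. This 2.45-fold rise (log2 fold change 1.29 ± 0.13 SE, edgeR adjusted p = 0.000163) was the largest of all 40 tested genes and stayed at 1.19 or more when single lungs were left out. Psmd5 and Psmd9 had log2 fold changes of 0.08 and 0.03 and were not called, and that of Psmd5 was 0.0004 without TNF+ replicate 1. The sign of Psmd9 turned under DESeq2 and under 3 other scalings, and 25.5% of its exonic bases overlap Gm26745 on the opposite strand.

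The activators were as mixed. Psme2, the beta subunit of PA28, had 3609, 3721 and 3348 normalized counts in TNF+ lungs and 1926, 2347 and 2659 in TNF- lungs, for a log2 fold change of 0.62 ± 0.13 (SE, edgeR adjusted p = 0.00492). Its partner Psme1 had 5906, 5968 and 4721 against 3753, 4644 and 4917, and here the groups overlapped. The log2 fold change of Psme1 was 0.32 (95% confidence interval -0.01 to 0.64, edgeR adjusted p = 0.0975), and it was 0.18 without TNF- replicate 1. Psme3, the nuclear PA28 subunit, had 2259, 2488 and 2115 normalized counts against 2270, 2657 and 2261, a log2 fold change of -0.07 (95% confidence interval -0.31 to 0.18).

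Psme4, which encodes PA200, had 1779, 1757 and 1818 normalized counts in TNF+ lungs and 1500, 1463 and 1424 in TNF- lungs. The rise of 0.29 ± 0.08 (log2 fold change, SE) had an edgeR adjusted p of 0.0171, which became 0.0791, 0.0571 and 0.0590 without TNF+ replicate 1, TNF- replicate 1 and TNF- replicate 2. Psmf1, the regulator PI31, had 1015, 1149 and 859.0 against 965.1, 943.1 and 979.2 and was not called (log2 fold change 0.07).

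The inducible catalytic subunits were set beside the constitutive ones they replace. Psmb8 had 4181, 4522 and 3738 normalized counts in TNF+ lungs and 1724, 2169 and 2647 in TNF- lungs, without overlap, and its log2 fold change was 0.93. Psmb10 had 2917, 2923 and 2915 against 1423, 1615 and 2043 (log2 fold change 0.78), and Psmb9 had 1283, 1373 and 1332 against 735.8, 750.4 and 1080 (log2 fold change 0.64). All 3 were called, with edgeR adjusted p values of 0.00204, 0.00193 and 0.0102. Constitutive and inducible catalytic genes thus rose in the same lungs. The leukocyte markers, at 3820 to 4160 CPM in TNF+ lungs and 1040 to 1340 CPM in TNF- lungs, moved with them, and their part in these values was not tested.

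Their ratio within a lung was tested by an exact two-sided permutation test, which cannot go below p = 0.1 with 3 lungs per group. The ratio of Psmb8 to Psmb5 counts was 3.00, 3.03 and 2.74 in TNF+ lungs and 1.71, 2.32 and 2.28 in TNF- lungs, a difference of 0.49 on the log2 scale (exact p = 0.1, 0.15 adjusted over 3 pairs). Psmb10 to Psmb7 gave 1.92, 1.77 and 1.84 against 1.21, 1.43 and 1.68, a log2 difference of 0.37 (exact p = 0.1, adjusted 0.15). In both pairs the ratios of the groups did not overlap. Psmb9 to Psmb6 gave 0.396, 0.370 and 0.479 against 0.359, 0.300 and 0.425, and this difference of 0.20 was within the spread of the lungs (exact p = 0.4, adjusted 0.4). TNF- replicate 1, the lung with squamous and muscle genes, had the lowest ratio for the first 2 pairs. Without it the log2 differences were smaller for these pairs, at 0.35 for Psmb8 and Psmb5 and 0.25 for Psmb10 and Psmb7.

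**Figure D5:**
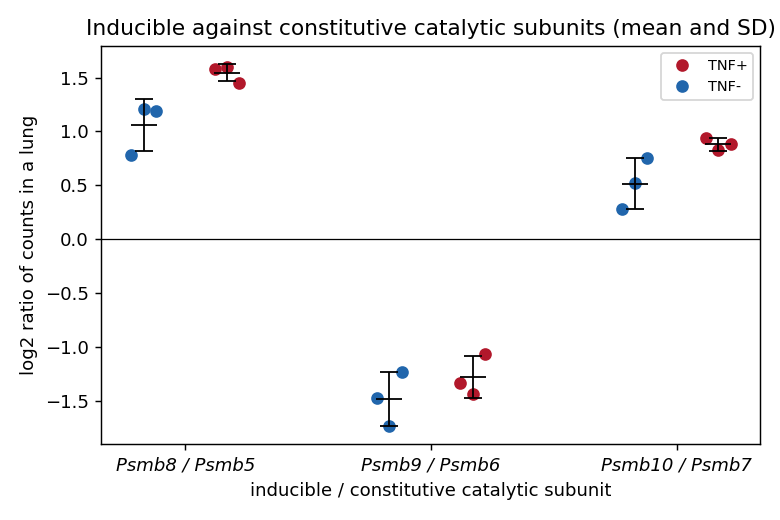
Log2 ratio of the counts of each inducible catalytic subunit to the constitutive subunit it replaces, in each lung (points), with the mean and SD of each group (bars). TNF+ and TNF- lungs are separate for Psmb8 over Psmb5 and Psmb10 over Psmb7 and overlap for Psmb9 over Psmb6.

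Genes that build, feed or regulate the proteasome were counted from a list of 37, of which 36 were found in the table and tested. In TNF+ lungs 9 were called higher and 3 lower, together 33.3% against 47.4% of all genes tested, and their median log2 fold change was 0.16. The inducible subunits Psmb8, Psmb9 and Psmb10 are 3 of the 9. Of the assembly factors, only Psmg4, a chaperone of the alpha ring, was called among 7, with a log2 fold change of 0.71 (edgeR adjusted p = 0.0131, or 0.0501 without TNF+ replicate 2). Pomp, the maturation factor of the core, had 2261, 2337 and 2069 normalized counts against 1781, 1979 and 2190, with overlapping groups and a log2 fold change of 0.16, which was 0.07 without TNF- replicate 1. Sem1, a small lid subunit listed under the older symbol Shfm1, had 2464, 2297 and 2197 against 1216, 1312 and 1613 and rose by 0.75 (log2 fold change, edgeR adjusted p = 0.00143). Adrm1, the ubiquitin receptor of the base, had a log2 fold change of -0.02.

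Of the transcription factors of subunit genes, Nfe2l2 was called and Nfe2l1 was not. Nfe2l1, which is processed by Ddi2 and Ngly1 and raises subunit genes when proteasome activity is short, had a log2 fold change of -0.10 (95% confidence interval -0.36 to 0.17), and from -0.18 to -0.03 when lungs were left out. Ddi2 and Ngly1 had 0.04 and 0.22 and were not called. For Ngly1 the groups did not overlap, with 795.1, 747.7 and 792.9 normalized counts in TNF+ lungs and 683.2, 714.0 and 612.2 in TNF- lungs (edgeR adjusted p = 0.120). Nfe2l2, the regulator of the response to oxidants, had 5481, 4749 and 5006 normalized counts in TNF+ lungs and 3747, 3544 and 3385 in TNF- lungs, without overlap, and rose by 0.51 ± 0.10 (log2 fold change, SE, edgeR adjusted p = 0.00359).

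Of the 5 shuttle receptors 2 were called lower, against 23.4% of all genes tested, and the log2 fold changes of Ubqln2 (0.24) and Rad23b (0.12) were positive without a call. The shuttle receptors Ubqln4 and Ubqln1, which carry tagged proteins to the proteasome, fell, with log2 fold changes of -0.50 (edgeR adjusted p = 0.00396) and -0.36 (edgeR adjusted p = 0.0201, or 0.0505 without TNF+ replicate 2). The ubiquitin-activating enzyme Uba1 fell by 0.37 on the log2 scale (edgeR adjusted p = 0.0244), a call that was lost without any of 5 lungs, with adjusted p values up to 0.0925 without TNF- replicate 2. Rps27a, a fusion of ubiquitin and a ribosomal protein, rose by 0.95, and Zfand5, which binds the 19S particle and ubiquitin, by 0.57 (log2 fold changes, edgeR adjusted p = 0.00219 and 0.00834). Uchl5, a deubiquitinating enzyme of the base, rose by 0.45 (edgeR adjusted p = 0.0205), and this call was lost without any of 4 lungs, with adjusted p values up to 0.0777 without TNF+ replicate 1.

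Levels of the subunit genes were compared with each other per kilobase of the longest annotated transcript. In TNF- lungs the highest was Psmb6 at 81.6 ± 10.3 CPM per kilobase (SD, n = 3), next to Psme2 at 80.3 ± 14.7 and Psme1 at 74.6 ± 11.4. These neighbours did not differ beyond their spread. Psmc3 (71.9), Psmc1 (68.9) and Psmb4 (65.4) followed. At the other end were Psme4 (7.51), Psmd10 (7.14) and Psmd5 (6.22), with the tissue-restricted Psma8 at 0.129. In TNF+ lungs Psme2 was first at 121 ± 7.92 and Psmb6 second at 110 ± 12.3, while Psmd8 moved from place 13 to place 5 and Psmd7 from 11 to 20. The order depends on which length is used: 6 of the 10 highest genes in TNF- lungs were also among the 10 highest per kilobase of coding sequence, where Psme1 was first at 198 ± 30.4 CPM per kilobase (SD, n = 3) and Psmb6 second with a mean of 110 CPM per kilobase.

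The promoters of the subunit genes were searched because core genes rose together. RefSeq sequence of the GRCm38.p6 assembly was at hand for 34 of the 41 genes, and the 250 bases before the start were read on both strands. The antioxidant response element, a site of Nfe2l1 and Nfe2l2, was searched as TGACNNNGC and was present for 5 of the 34 (14.7%), against 11.5% of 27025 genes. These were 2 of 11 core genes, 2 of 14 19S genes and the chaperone gene Psmd9. Psmb5, Psmb6 and Psmc6 were called higher, and Psmd12 and Psmd9 were not called. The CCAAT box was present for 13 of 34 (38.2%), against 37.5% of all genes, including 6 of 11 core genes and 4 of 14 19S genes. Among these, the windows of Psma7 and Psmc1 could not be matched to the annotated transcripts on either strand, so their matches are uncertain. The interferon-stimulated response element, searched as GAAA, 2 open bases and GAAA, was present for 3 of 34 (8.82%) against 3.46%. The 3 were 1 of 11 core genes, 1 of 14 19S genes and Psmd9. Neither the STAT site TTCNNNGAA nor the NF-kB site, searched as GGG, 2 open bases and TTTCC, was present for any of the 34 genes. The shares of all genes were 8.13% and 1.65%. A match describes these letters and does not show that a factor was bound.

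The 3 called genes with an antioxidant response element are shown with that match in capitals. Psmd10, the gene with the largest rise, is shown with a CCAAT box in capitals. Another CCAAT match of Psmd10, 24 bases before the start, stands in lower case at the end of its stretch. A further match lies 230 bases before the start and is not shown. Each sequence is on the strand of its gene and lies before the RefSeq start, and 10 of the bases shown for Psmb5 are exonic by GENCODE.
Psmb5, chr14:54618013-54618063, minus strand, match 47 bases before the start: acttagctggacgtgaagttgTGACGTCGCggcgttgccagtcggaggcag
Psmb6, chr11:70525306-70525356, plus strand, match 9 bases before the start: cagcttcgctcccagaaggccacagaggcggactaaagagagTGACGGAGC
Psmc6, chr14:45329576-45329626, plus strand, match 227 bases before the start and in reverse: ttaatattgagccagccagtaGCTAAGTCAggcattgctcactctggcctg
Psmd10, chrX:140956731-140956781, minus strand, match 47 bases before the start and in reverse: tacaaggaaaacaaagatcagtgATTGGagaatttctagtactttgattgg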

How the data were processed

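Poly(A) RNA from 6 whole lungs (3 TNF+, 3 TNF-) was sequenced by the authors as stranded, single-end libraries of 100-base reads. The submitters' processing notes name Trimmomatic 0.36, STAR 2.5.2b, featureCounts and GRCm38.p5; the strand setting and annotation of the counting are not given in the sources used here. The deposited values are raw counts per gene symbol, without normalization. Columns were matched to mice by genotype and number.

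Counts were tested with edgeR 4.0.16 (R 4.3.3) after its filter on low counts and TMM scaling, in a quasi-likelihood model of genotype alone, with p adjusted by Benjamini-Hochberg over 19199 genes at 0.05. Standard errors were the log2 fold change divided by the square root of the F statistic. Normalized counts are counts scaled to the mean TMM library size. Alternatives were DESeq2 1.42.0, limma-voom (limma 3.58.1), other scalings and filters, a robust fit, a block for replicate number, and each lung left out. Ratios of counts used a pseudocount of 0.5. The fits were tested on simulated data. Replicates differed by more than sampling noise (chi-square of 37.9 to 98.0 for each degree of freedom). Lengths, overlaps and shared windows came from GENCODE M21, and promoters from RefSeq.

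The members and gene lists were chosen with earlier results of these data known. Values in every lung are given for catalytic subunits and their inducible counterparts, activators, tissue-restricted subunits and, within each role, up to 2 called genes with the largest change. From the list of partner genes, the called ones, up to 10 by size, the transcription factors, Pomp, Adrm1 and Sem1 are named. Paaf1 is not analysed here.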

Additional observations from a re-analysis of the deposited data

How the results depend on the processing

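The count of called subunit genes, 21 in the main analysis, was within 1.5 times of that number under every alternative: 16 with total counts only, 18 with the replicate number as a block, 19 with no filter on low counts, and 16 to 21 when each lung was left out. With total counts only, Psma1, Psma3, Psmb4, Psmc4, Psme4 and Uchl5 lost their calls, and Psmc4 and Psme4 did with no filter on low counts. The count of subunit genes called lower was 0, but 1 with DESeq2 (Psmc5), 1 with DESeq2 size factors (Psmd7) and 2 with upper-quartile factors. It was 0 in all 6 leave-one-out analyses. The median log2 fold change of the subunit genes was 0.28 to 0.37 across these, and called partner genes numbered 8 to 13 (main 12). Over all genes, 7347 to 9164 were called without a lung, against 9096.

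Genes near 0 changed sign. Psmd9 had log2 fold changes of -0.0064 with DESeq2, -0.0013 with DESeq2 size factors, -0.0192 with upper-quartile factors and -0.0022 with total counts only, and Psmd11 had -0.001 with DESeq2 and -0.0136 with upper-quartile factors. When lungs were left out, log2 fold changes ranged from -0.12 to 0.12 for Psmd9, -0.053 to 0.1006 for Psmd11, -0.0375 to 0.1543 for Psmf1, -0.17 to 0.003 for Psmc1, -0.0686 to 0.0343 for Psmd1, -0.13 to 0.0086 for Psme3, -0.0792 to 0.0264 for Adrm1 and -0.0237 to 0.0775 for Ddi2. The cause was not tested.

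Replicate numbers did not pair the lungs: same-numbered lungs, from different mice, had correlations of deviations of -0.15, -0.004 and -0.24. With the replicate number as a block, 7686 genes were called, with 18 subunit genes and 11 partner genes, and Psmb4, Psmc4, Psme4 and Uba1 lost their calls. Within replicate numbers the log2 ratio differences of the catalytic pairs were the same by construction. Without a lung they ranged from 0.35 to 0.56 (Psmb8 and Psmb5), 0.08 to 0.33 (Psmb9 and Psmb6) and 0.25 to 0.48 (Psmb10 and Psmb7). Of the 10 highest genes per transcript length, 6 were among the 10 highest per coding length. Standard errors of log2 fold changes, which limit what 3 lungs per group can resolve, ran from 0.08 to 0.15 for all tested subunit genes except Psma8.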
